A study of Mus musculus with 2 samples.

Results

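Bone morphogenetic protein (BMP) signalling in the cerebellum of newborn mice was described through 10 of the 32285 genes counted by single-nucleus RNA-seq. The members were taken by symbol. They are the ligand genes Bmp2, Bmp4, Bmp5, Bmp6, Bmp7 and Gdf10 and the receptor genes Bmpr1a, Bmpr1b, Acvr1 and Bmpr2. Each symbol matched 1 row of the count matrices, and all 10 passed the minimum of 20 unique molecular identifiers (UMIs, the tags that mark single captured transcripts) over both libraries.

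BMP ligands are secreted dimers that bring together type I receptors (encoded by Bmpr1a, Bmpr1b and Acvr1) and type II receptors such as that encoded by Bmpr2. The type II receptor phosphorylates the type I receptor, which then phosphorylates SMAD1, SMAD5 and SMAD9, and these enter the nucleus with SMAD4 and act on genes such as Id1 to Id4. In the embryonic hindbrain, BMPs from the roof plate help to induce the rhombic lip, where granule neuron progenitors (GNPs) arise. BMPs can also oppose the proliferation of GNPs that Sonic hedgehog drives, and Gdf10 (also called Bmp3b) is a known gene of Bergmann glia.

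Nuclei came from frozen cerebella at postnatal day 1, with 12 cerebella pooled per library and 1 library per group. The control library was made from Cre-negative littermates, labelled Tox3f/f in one field and Tox3f/f or Tox3f/+ in another. The second library was labelled Nestin-cre;Tox3f/f (cKO). Nestin-cre, a transgene active in neural precursors and inherited by their neuronal and glial progeny, was meant to delete the loxP-flanked part of Tox3, so microglia and vessel-associated cells lie outside its main lineage.

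After filtering, 4667 control nuclei with 20546345 UMIs and 6555 nuclei of the cKO-labelled library with 30147400 UMIs remained, and 9 barcodes occurred in both. Tox3 itself was not lower in the cKO-labelled library, at 104 CPM (UMIs of the gene per 1000000 UMIs) in control and 119 CPM in the other library, so the transcript count does not check the label. Counts from the 3′ end cannot show which exon was lost. Atoh1 had 43 UMIs in control and 3 in the cKO-labelled library. Each group being 1 library, the data hold no replicate error and no test was made. Each 95% interval given here covers counting error only, and a genotype effect and a library effect cannot be told apart.

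Nuclei were clustered without the members and assigned to classes from other marker genes. The named classes, with control nuclei first and nuclei of the cKO-labelled library second, were GNP-like (506 and 116), granule neuron (GN)-like (1454 and 1877), unipolar brush cell-like (246 and 230), Purkinje cell-like (300 and 716) and GABAergic interneuron-like (508 and 1190). The non-neuronal classes were Bergmann glia-like (238 and 570), parenchymal astrocyte-like (104 and 300), oligodendrocyte lineage-like (76 and 253) and microglia-like (53 and 151). These 9 are called the larger classes. Cluster 22 (9 and 13 nuclei) is given by its number because its markers differed between the libraries. Its control nuclei had 2898 CPM of summed endothelial markers (7 of 7 detected) beside 2843 CPM of fibroblast and mural markers, against 192 CPM (2 of 7) and 4663 CPM in the cKO-labelled library. Cldn5 had 31 and 0 UMIs and Flt1 27 and 0, so the 2 libraries did not hold the same cells there and no ratio is given for it. Unnamed clusters held 1173 control nuclei and 1139 of the cKO-labelled library, most of them droplets of low depth. The GNP-like class did not carry all of its markers in the cKO-labelled library. There Gli2 (660 CPM in control, 639 in the cKO-labelled library) and Ptch1 (542 and 849) were present, whereas Barhl1 had 274 and 3 UMIs, Fgfr4 83 and 0, and Atoh1 17 and 0. GNP-like thus stands for the cluster in that library and not for a matched cell state.

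The promoters of Gdf10, Bmp6 and Bmpr1b are shown because these members had the clearest cell type pattern or the clearest difference between libraries. The sequences are from the RefSeq promoter table on GRCm38.p6, run 5′ to 3′ on the strand of the gene from 250 bases before the start of transcription to 30 bases after it, and lie at chr14:33923337-33923616 (plus strand), chr13:38345466-38345745 (plus strand) and chr3:141982235-141982514 (minus strand). Capitals mark matches, on either strand, to GGCGCC, a GC-rich word found in BMP response elements, and to the E-box words CAGCTG and CAGATG, read by basic helix-loop-helix factors.
Gdf10: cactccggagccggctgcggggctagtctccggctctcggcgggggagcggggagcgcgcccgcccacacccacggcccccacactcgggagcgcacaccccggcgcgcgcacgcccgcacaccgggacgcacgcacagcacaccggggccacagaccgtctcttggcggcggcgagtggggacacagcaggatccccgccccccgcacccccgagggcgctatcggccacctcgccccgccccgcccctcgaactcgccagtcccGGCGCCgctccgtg
Bmp6: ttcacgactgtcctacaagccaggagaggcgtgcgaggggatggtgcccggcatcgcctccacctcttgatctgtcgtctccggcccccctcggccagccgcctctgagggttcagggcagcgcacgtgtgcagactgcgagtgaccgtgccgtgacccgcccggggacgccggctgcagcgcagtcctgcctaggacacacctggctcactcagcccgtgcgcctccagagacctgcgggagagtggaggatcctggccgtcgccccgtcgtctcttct
Bmpr1b: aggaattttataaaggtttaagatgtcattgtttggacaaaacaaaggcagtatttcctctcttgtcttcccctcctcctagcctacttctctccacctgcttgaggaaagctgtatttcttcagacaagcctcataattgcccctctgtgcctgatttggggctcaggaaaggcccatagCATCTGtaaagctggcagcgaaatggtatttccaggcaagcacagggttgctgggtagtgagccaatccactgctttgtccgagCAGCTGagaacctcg
The Gdf10 window held GGCGCC once and the Bmp6 window held none of these words. In the Bmpr1b window CAGCTG occurred once, as did the other E-box word, read there on the opposite strand. Of 32851 promoters of the same length, 10.9% held the GC-rich word, 14.9% held CAGCTG and 16.1% had a match to the other E-box word. The GC-rich word also occurred once each in the Bmpr1a and Bmpr2 windows, and no window of Bmp4, Bmp5 or Acvr1 had any of the words. The 3 Bmpr1b windows in the table differed, since the window at chr3:141931391-141931670 held CAGCTG once and that at chr3:141931559-141931838 none of the words. The table had no entry for Bmp2 and Bmp7. A match describes letters in this window and not a bound site.

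Over all nuclei, Gdf10 stood 2.12-fold higher in the cKO-labelled library (41.1 CPM in control, 87.3 CPM in the cKO-labelled library, interval of the ratio 1.96 to 2.30). Bmp4, at few UMIs, stood 4.86-fold higher (8 and 57 UMIs, 2.31 to 11.8). Bmp5 was lower, at 8.76 CPM in control and 4.64 CPM in the cKO-labelled library (ratio 0.530, 0.422 to 0.665). These were the 3 members past 1.5-fold, 2 higher and 1 lower. Of the 20213 genes with at least 20 UMIs, 7.03% were past 1.5-fold higher and 7.72% past 1.5-fold lower. The median log2 ratio was -0.10 over the members and -0.02 over all these genes.

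The other 7 members differed less. Bmp6 (83.6 and 66.7 CPM, ratio 0.798, 0.748 to 0.851) and Bmpr1b (126 and 99.1 CPM, ratio 0.789, 0.748 to 0.832) were lower in the cKO-labelled library with intervals that left out 1. Bmpr1a had a ratio of 0.962, Bmpr2 of 0.947 and Acvr1 of 0.925. Bmp2 (38 and 54 UMIs) and Bmp7 (67 and 84 UMIs) had ratios of 0.968 and 0.854 with intervals that held 1.

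The libraries differed in their class shares. GNP-like nuclei were 10.8% of the nuclei in control and 1.77% in the cKO-labelled library, and Bergmann glia-like nuclei 5.10% and 8.70%. With each class weighted by its share of UMIs in control, the ratio of Gdf10 was 1.80 (1.65 to 1.96), that of Bmp4 3.22 (1.53 to 6.79) and that of Bmpr1b 0.778 (0.733 to 0.826). The weighting took in every class, including the GNP-like class, the cluster reported by number and the unnamed clusters, whose cells were not matched between the libraries. Unnamed cluster 1 had 999 control nuclei and 19 of the cKO-labelled library, and unnamed cluster 5 had 15 and 673. The weighting thus holds class shares equal but not the cells within a class. The Bmp5 ratio moved to 0.911 (0.687 to 1.21), so the difference seen over all nuclei was not found with class shares held equal. Bmp7 moved the other way, to 0.549 (0.395 to 0.762). Under the alternative class shares and groupings its ratio ranged from 0.527 to 0.714, so it was not past 1.5-fold in all of them. On this scale 2 members were past 1.5-fold higher (Bmp4 and Gdf10) and 1 lower (Bmp7), beside 4.09% and 7.33% of all genes.

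**Figure D1:**
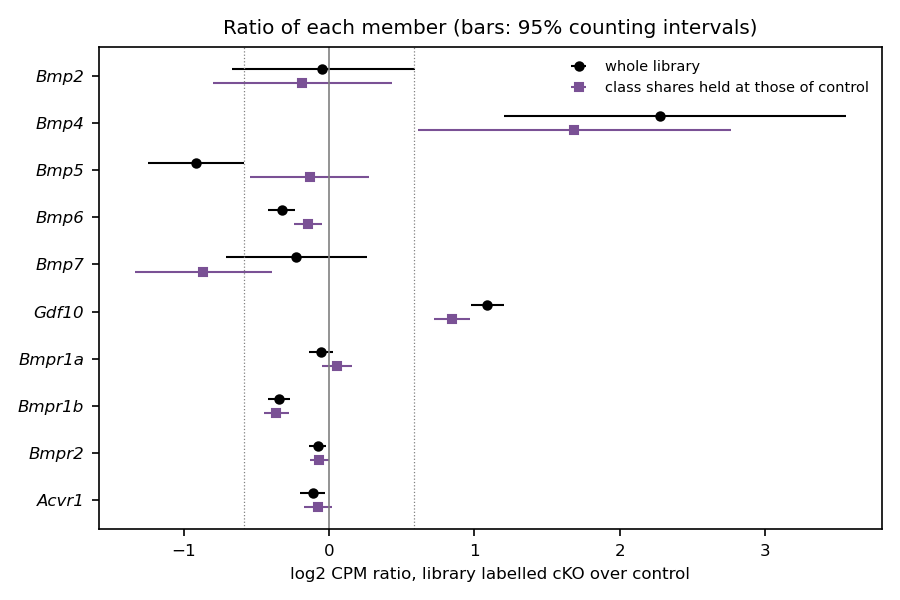
CPM ratio of each member on a log2 axis, cKO-labelled library over control, over all nuclei (black circles) and with class shares held at those of control (purple squares); bars are 95% counting intervals and dotted lines mark 1.5-fold. Gdf10 and Bmp4 lie to the right on both scales, Bmp5 is left of the line only over all nuclei (0.530 against 0.911), and the 4 receptors lie between 0.778 and 1.04 on both.

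Each member was then followed across the classes. CPM values are taken over the UMIs of the class. Levels are compared between classes and libraries but not between genes.

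**Figure D2:**
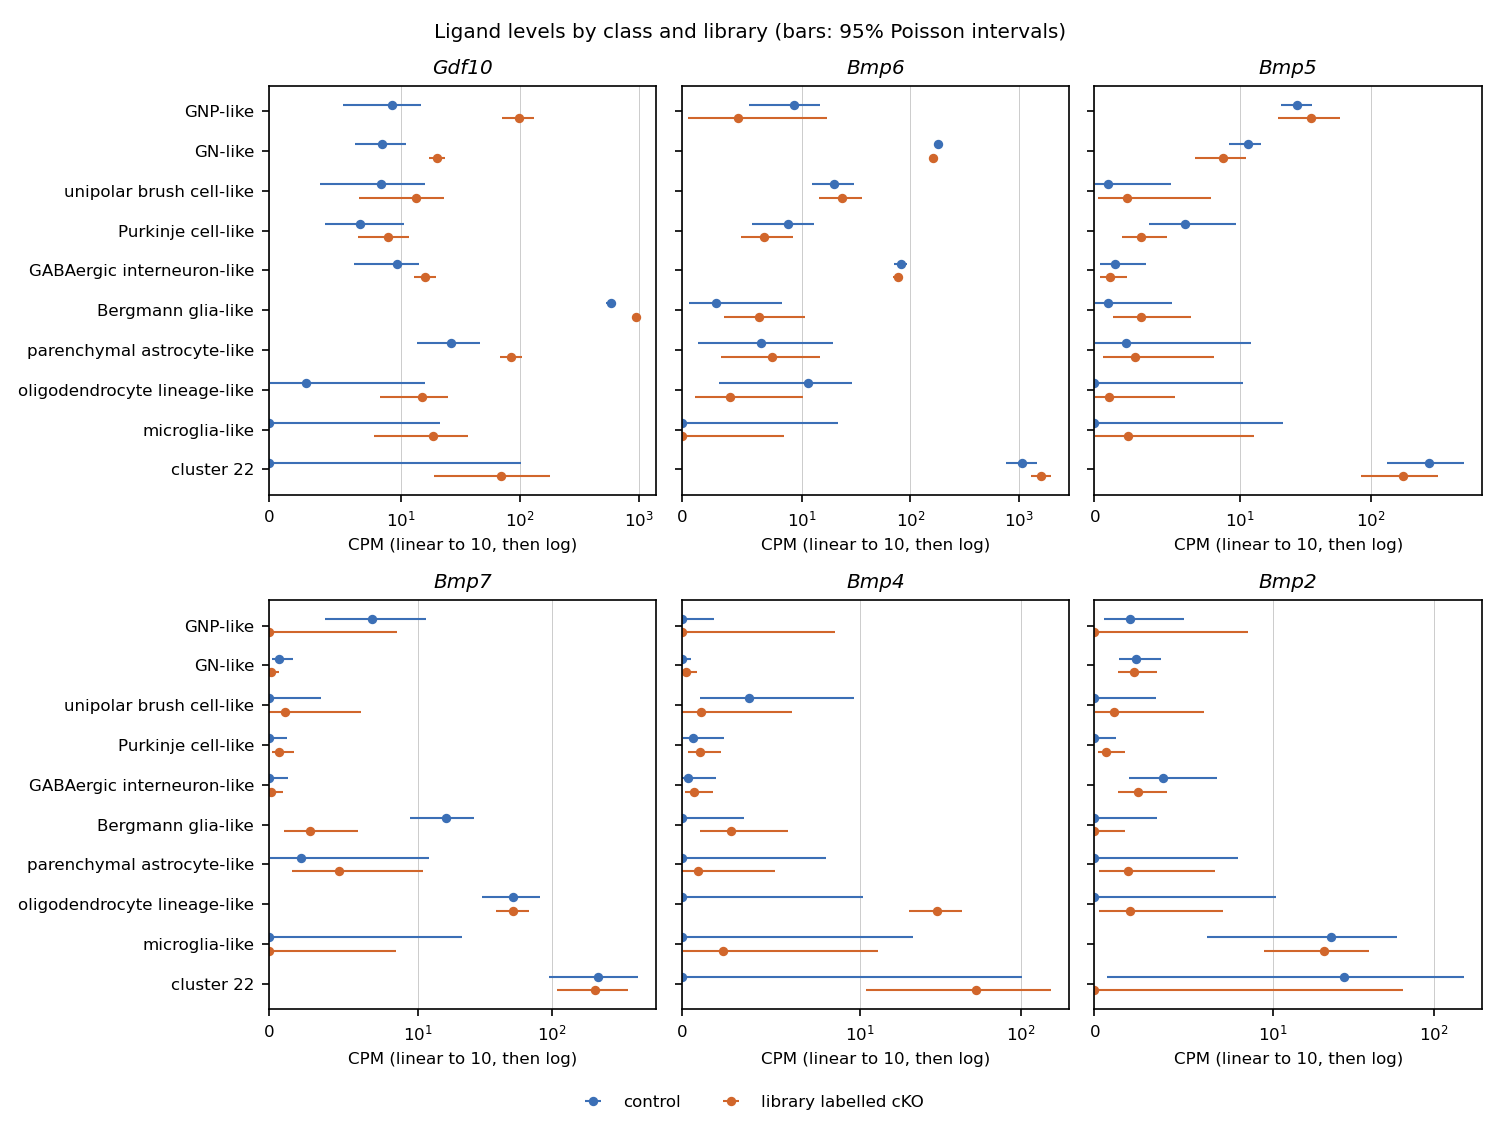
Level of each ligand gene by class in CPM (axis linear up to 10, then logarithmic), control in blue and the cKO-labelled library in orange, with 95% Poisson intervals. Gdf10 is highest in Bergmann glia-like nuclei (578 and 940 CPM), Bmp6 in cluster 22 (22 nuclei) and then the GN-like class (181 and 161 CPM), Bmp7 in cluster 22 and then the oligodendrocyte lineage-like class (51.0 and 50.9 CPM).

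Gdf10 (ENSMUSG00000021943, chr14:33923587-33937983 on GRCm38, plus strand) encodes a divergent member of the BMP family. It was a gene of Bergmann glia-like nuclei in both libraries, with 606 UMIs (578 CPM, 532 to 625) in control and 2056 UMIs (940 CPM, 900 to 982) in the cKO-labelled library. These nuclei held 71.7% and 78.1% of all its UMIs. The intervals of the 2 libraries did not overlap, and the level was 1.63-fold higher in the cKO-labelled library (1.49 to 1.79). Of the members with at least 20 UMIs in this class, 2 of 6 were past 1.5-fold, Gdf10 higher and Bmp7 lower, beside 16.4% of all genes counted there.

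Both more nuclei with Gdf10 and more UMIs per nucleus were counted. At least 1 UMI was found in 73.1% of control and 83.5% of Bergmann glia-like nuclei of the cKO-labelled library, although the median depth was lower there (4290.5 and 3658 UMIs). After random thinning of every nucleus to 1000 UMIs, with shallower nuclei left out, the shares were 33.5% (79 of 236 nuclei, exact binomial interval 27.5 to 39.9) and 54.0% (307 of 569, 49.8 to 58.1). Purkinje cell-like nuclei, which serve as the background class, had shares of 0.667% and 0.419% after thinning, and of 6.33% and 6.84% before it at median depths of 9300 and 7960.5 UMIs. The mean was 2.55 UMIs per Bergmann glia-like nucleus in control and 3.61 in the cKO-labelled library, the highest nucleus had 13 and 20, and 21.4% and 30.7% of nuclei had 5 or more.

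The summed Bergmann glia markers used for naming were not higher beside it. Their level over the 9 listed genes, all detected, was 12355 CPM in control and 11232 CPM in the cKO-labelled library. Slc1a3, the glutamate transporter of these cells, stood at 4442 and 4290 CPM, and Tnc, which encodes the matrix protein tenascin C, at 3055 and 2377 CPM. Of the 9 markers, Fabp7 (606 and 664 CPM) and Ptprz1 (1534 and 1551 CPM) had a higher level in the cKO-labelled library and the other 7 a lower one.

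Parenchymal astrocyte-like nuclei had far less Gdf10, at 26.2 CPM in control and 84.3 CPM in the cKO-labelled library (12 and 90 UMIs, 3.22-fold higher, 1.75 to 6.46, and 1.67-fold after thinning). In unipolar brush cell-like, Purkinje cell-like and GABAergic interneuron-like nuclei it lay between 6.87 and 16.0 CPM. GN-like nuclei went from 8.55 CPM (62 UMIs) to 20.1 CPM (164 UMIs), a ratio of 2.35 (1.75 to 3.20). It was the only one of the 8 members counted in GN-like nuclei past 1.5-fold, beside 11.8% of all genes there. All 4 GN-like clusters shared the direction, with ratios between 2.09 and 2.79.

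The widest difference in Gdf10 was in the GNP-like class. Its level there was 9.35 CPM (19 UMIs, 5.63 to 14.6) in control and 98 CPM (42 UMIs, 70.6 to 132) in the cKO-labelled library. The 42 UMIs lay in 27 of 116 nuclei. Both GNP-like clusters showed it, the mitotic cluster 15 at 10.5 and 97.7 CPM and cluster 18 at 7.59 and 98.8 CPM. The level in the cKO-labelled library was above that of every neuronal class and its interval met, among the named classes of that library, only that of the astrocyte-like class. The ratio was 10.5 (5.96 to 19.1), 24.0 after thinning and 32.3 with single nuclei gated on their own markers. Summed Bergmann glia markers in the same GNP-like nuclei were 1317 CPM in control and 1414 CPM in the cKO-labelled library, with 9 of 9 detected in each, and 1402 and 1739 CPM in GN-like nuclei. The part of carried-over RNA from Bergmann glia in these low values was not tested.

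Of the 7 members counted in GNP-like nuclei, 3 were past 1.5-fold either way (Gdf10, Bmpr1b and Bmp6), beside 32.3% of all genes counted in that class. Bmp6 passed on 19 and 2 UMIs (ratio 0.499), and its direction reversed to 6.90 at a lower cluster resolution and to 2.02 in gated single nuclei. That background was high, and the 2 libraries did not hold matched GNP-like states by Barhl1, Fgfr4 and Atoh1. Droplets of low depth carried Gdf10 too, with 101 CPM in cluster 1, almost entirely from control, and 144 CPM in cluster 5, almost entirely from the cKO-labelled library.

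Bmp6 (ENSMUSG00000039004, chr13:38345107-38500302, plus strand), a ligand best known for the control of iron through hepcidin, was the ligand of granule neurons. GN-like nuclei held 76.3% of its UMIs in control and 65.5% in the cKO-labelled library, at 181 CPM (171 to 191) and 161 CPM (153 to 170). GABAergic interneuron-like nuclei came next among the larger classes at 81.3 and 76.2 CPM. It was low in GNP-like (9.35 and 4.67 CPM), Purkinje cell-like (8.84 and 6.85 CPM) and Bergmann glia-like nuclei (2.86 and 6.40 CPM), and at 0 UMIs in microglia-like nuclei of both libraries, where 3 counts would give 17.4 and 6.92 CPM. The 22 nuclei of cluster 22, a mix with endothelial markers in control, had the highest level, 1076 CPM (39 UMIs in 9 nuclei, 765 to 1471) and 1607 CPM (92 UMIs in 13 nuclei, 1295 to 1970).

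Within the granule lineage, Bmp6 was found late. Cluster 9, the GN-like cluster with the highest Cntn2 (384 CPM over both libraries), a contactin of newly postmitotic granule neurons, stood at 4.67 CPM in control and at 3.06 CPM in the cKO-labelled library. Cluster 3 (Cntn2 169 CPM) had 94.0 and 73.2 CPM, cluster 4 (Cntn2 40.7 CPM) had 130 and 107 CPM, and cluster 0 (Cntn2 32.5 CPM) had 291 and 247 CPM. Bmp6 was thus highest where Cntn2 was lowest, in both libraries. In cluster 0, the only granule cluster with non-overlapping intervals, the ratio was 0.851 (0.778 to 0.930), and in cluster 3 it was 0.779 (0.608 to 0.996).

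In the whole GN-like class the Bmp6 ratio was 0.894 (0.828 to 0.966). Nuclei with at least 1 UMI were 29.2% and 26.2%, and 11.1% in each library after thinning, so no order is read from that share. GABAergic interneuron-like clusters also differed, with Bmp6 at 124 and 89.3 CPM in cluster 14, 105 and 113 CPM in cluster 11, 48.4 and 43.9 CPM in cluster 16 and 48.3 and 57.3 CPM in cluster 7. The ratio of the GABAergic class was 0.937 (0.798 to 1.10).

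**Figure D3:**
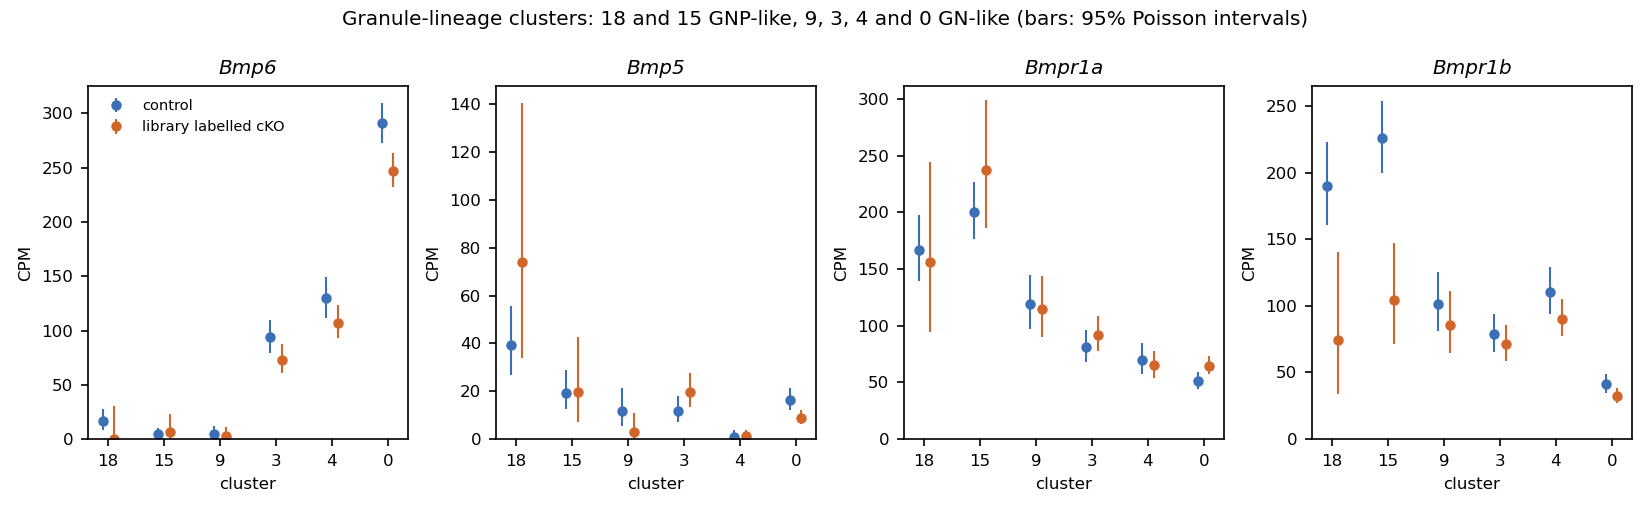
Bmp6, Bmp5, Bmpr1a and Bmpr1b in the 6 granule-lineage clusters in CPM (linear axes from 0), control in blue and the cKO-labelled library in orange, with 95% Poisson intervals. Bmp6 goes from under 17 CPM in clusters 18, 15 and 9 to 291 and 247 CPM in cluster 0, Bmpr1a is higher in clusters 18 and 15 than in the GN-like clusters, and Bmpr1b in clusters 18 and 15 is lower in the cKO-labelled library.

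Bmp5 (ENSMUSG00000032179, chr9:75775364-75900310, plus strand), a ligand close to Bmp6 and Bmp7 in sequence, was a gene of GNP-like and GN-like nuclei at a low level. GNP-like nuclei stood at 27.1 CPM (55 UMIs, 20.4 to 35.2) in control and at 35.0 CPM (15 UMIs, 19.6 to 57.7) in the cKO-labelled library. GN-like nuclei had 11.6 and 8.82 CPM (84 and 72 UMIs). The intervals of the libraries overlapped in both classes, and together these classes held most of its UMIs. The lower share of GNP-like nuclei stood beside the lower total of Bmp5 in the cKO-labelled library, where 15 of its UMIs came from that class against 55 in control.

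Clusters divided Bmp5 differently from Bmp6. It was highest in GNP-like cluster 18, at 39.2 CPM in control and 74.1 CPM in the cKO-labelled library (31 and 9 UMIs), and nearly equal in the mitotic cluster 15 (19.3 and 19.5 CPM). GN-like cluster 4, rich in Bmp6, had only 1 and 2 UMIs of Bmp5. In cluster 0 the level was 16.3 and 8.91 CPM (ratio 0.547, 0.349 to 0.850) and in cluster 3 it was 11.7 and 19.7 CPM (ratio 1.69, 0.927 to 3.15), so clusters of the same class pointed in opposite directions. Purkinje cell-like nuclei had 6.22 and 3.17 CPM, and cluster 22 had 276 and 175 CPM from 10 UMIs each.

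Bmp7 (ENSMUSG00000008999, chr2:172868012-172940321, minus strand) was a gene of the oligodendrocyte lineage-like class and, at fewer UMIs, of Bergmann glia-like nuclei. The oligodendrocyte lineage-like level was 51.0 CPM (18 UMIs, 30.2 to 80.6) in control and 50.9 CPM (51 UMIs, 37.9 to 66.9) in the cKO-labelled library, a ratio of 0.998 (0.573 to 1.81). In Bergmann glia-like nuclei it was 16.2 CPM (17 UMIs, 9.44 to 25.9) in control and 2.74 CPM (6 UMIs, 1.01 to 5.97) in the cKO-labelled library. Those intervals did not overlap, and the ratio was 0.169 (0.0547 to 0.450), or 0.636 with single nuclei gated on their own markers. In GNP-like nuclei Bmp7 had 14 UMIs (6.89 CPM) in control and 0 of 428589 UMIs in the cKO-labelled library, which allows up to 7.0 CPM by the limit of 3 counts, so a difference was not detectable at this depth.

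Bmp4 (ENSMUSG00000021835, chr14:46383520-46390669, minus strand), an early patterning ligand, had 8 UMIs in control and 57 in the cKO-labelled library. Of the 57, 30 (52.6%) lay in 18 of the 253 oligodendrocyte lineage-like nuclei, at 29.9 CPM (20.2 to 42.7). The 76 control nuclei of that class had 0 of 352788 UMIs, which allows up to 8.50 CPM. Set against that floor of 3 counts, the level in the cKO-labelled library was 3.52-fold higher. This value leaves out the counting error of the 30 UMIs and is not a lower limit. The exact Poisson interval of control reached 10.5 CPM and did not overlap that of the cKO-labelled library. Apart from 3 UMIs in cluster 22, no class outside this lineage passed 4 CPM in either library.

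By the level of its myelin genes, the maturity of that class differed between the libraries along with Bmp4. Mbp, a gene of myelin, stood at 51.0 CPM (18 UMIs) in control and 313 CPM (314 UMIs) in the cKO-labelled library. Mag, another myelin gene, had 0 UMIs in control and 29 (28.9 CPM) in the cKO-labelled library. Pdgfra, the receptor of oligodendrocyte precursors, was lower in the cKO-labelled library, at 1193 and 989 CPM (421 and 991 UMIs). The share of nuclei with a UMI of Mbp or Mag was similar. Such nuclei numbered 14 of 76 in control and 52 of 253 in the cKO-labelled library. Among these, Bmp4 was at 0 UMIs in control (up to 38.2 CPM) and 83.7 CPM (21 UMIs, 51.8 to 128) in the cKO-labelled library. Among the remaining 62 and 201 nuclei it was at 0 UMIs (up to 10.9 CPM) and 12.0 CPM (9 UMIs, 5.48 to 22.7), so a difference was not detectable there. The part of maturity in the result over the whole class was not tested further.

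The nuclei with Bmp4 and those with Bmp7 differed in their lineage markers. In the cKO-labelled library, the 18 nuclei with Bmp4 had 20.6 CPM of Pdgfra against 1093 CPM in the 235 nuclei without it, and 2103 against 122 CPM of Mbp. Their Mag was 247 against 5.53 CPM, and Sox10, a factor of the whole lineage, was 433 against 314 CPM. The 40 nuclei with Bmp7 had 1447 CPM of Pdgfra against 899 CPM in the 213 nuclei without it, and 54.7 against 364 CPM of Mbp. Their Cspg4, another precursor gene, was 243 against 191 CPM, with overlapping intervals. Split by Mbp or Mag, Bmp7 in that library stood at 39.9 CPM (19.1 to 73.3) in nuclei with either and 54.6 CPM (39.2 to 74.0) in the others, and the intervals overlapped. Nuclei with Bmp4 were thus high in myelin genes and low in Pdgfra, while for Bmp7 only Pdgfra and Mbp, and Mag narrowly, had separate intervals.

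**Figure D4:**
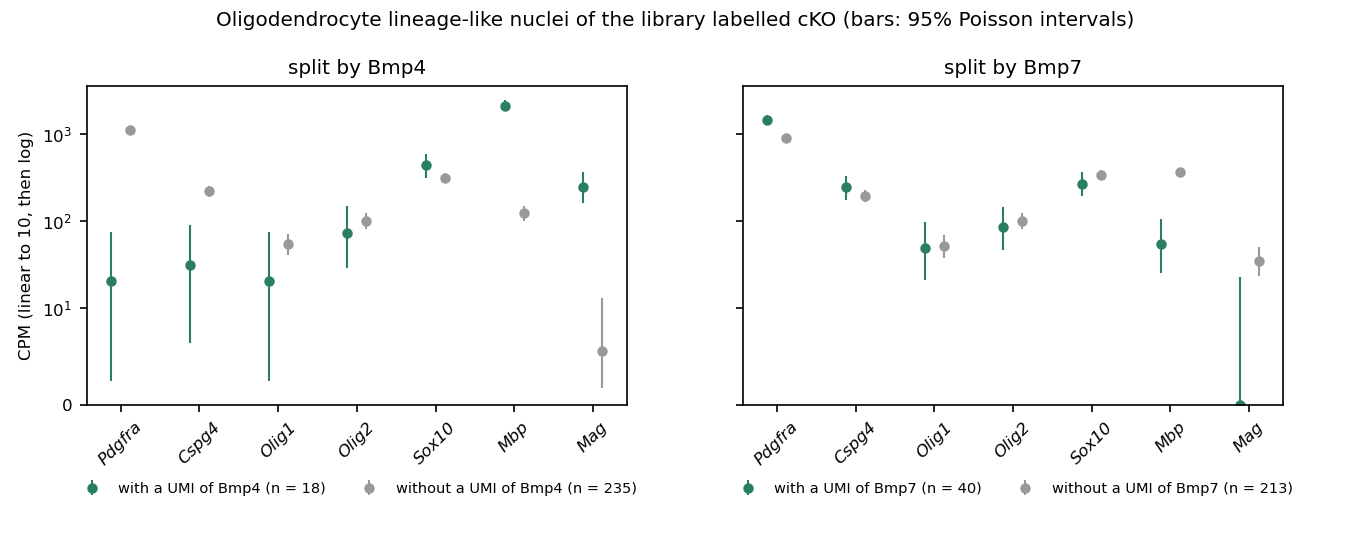
Lineage markers in CPM (axis linear up to 10, then logarithmic) in oligodendrocyte lineage-like nuclei of the cKO-labelled library, split by a UMI of Bmp4 (left, 18 nuclei with and 235 without) or Bmp7 (right, 40 with and 213 without), with 95% Poisson intervals. Nuclei with Bmp4 are high in Mbp and Mag and low in Pdgfra, and nuclei with Bmp7 are higher in Pdgfra (1447 against 899 CPM) and lower in Mbp.

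Bmp2 (ENSMUSG00000027358, chr2:133552159-133562885, plus strand), a close relative of Bmp4, had 38 UMIs in control and 54 in the cKO-labelled library. Its level was 23.2 CPM (4 UMIs) and 20.8 CPM (9 UMIs) in microglia-like nuclei, and all 13 of these UMIs lay in cluster 21, which was led by the macrophage genes Mrc1 and Lyve1. That cluster stood at 57.7 CPM over both libraries (30.7 to 98.7), while the other microglia-like cluster had 0 UMIs in 133 nuclei, which allows up to 7.87 CPM. GN-like nuclei had 2.34 and 2.21 CPM and GABAergic interneuron-like nuclei 3.82 and 2.41 CPM. Bergmann glia-like nuclei had 0 UMIs in both libraries, where 3 counts would give 2.86 and 1.37 CPM.

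**Figure D5:**
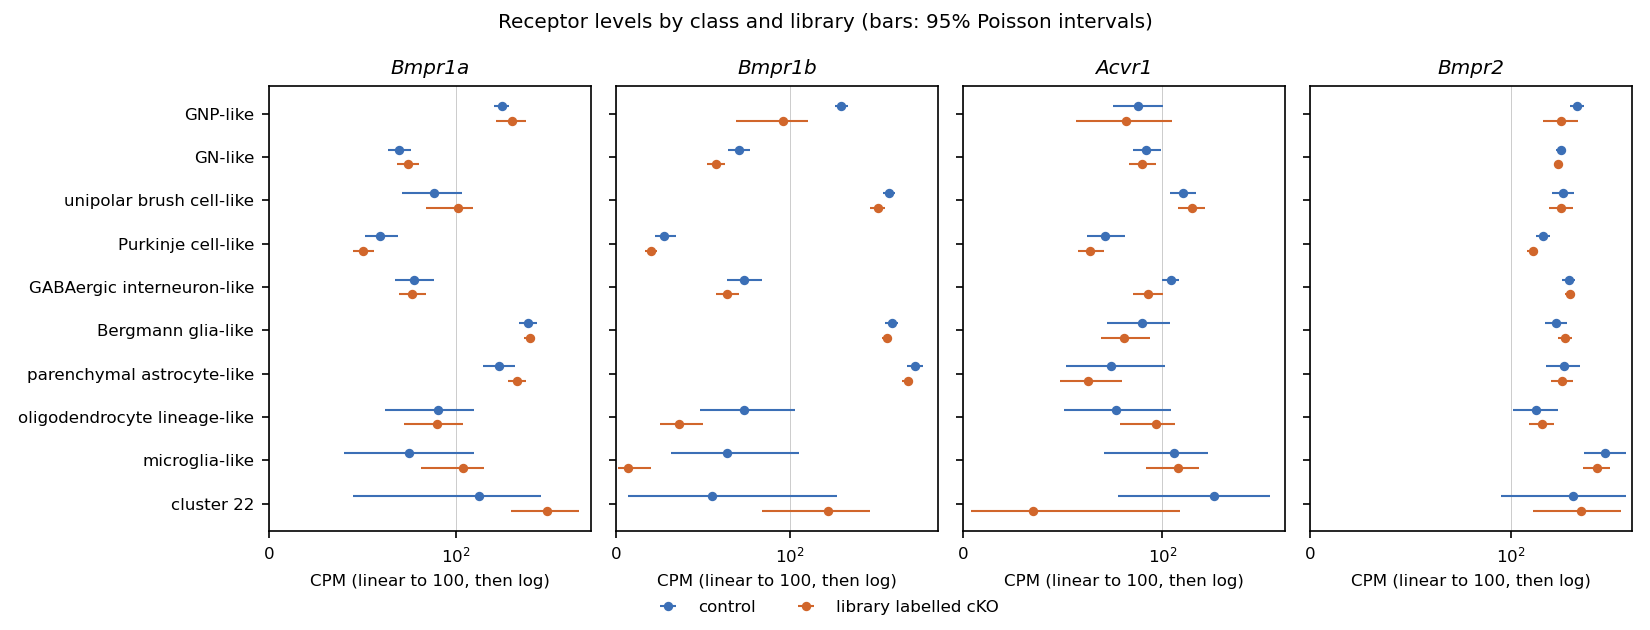
Level of each receptor gene by class in CPM (axis linear up to 100, then logarithmic), control in blue and the cKO-labelled library in orange, with 95% Poisson intervals. Bmpr1b spans from 27.8 CPM in Purkinje cell-like to 623 CPM in astrocyte-like nuclei of control, Bmpr1a is highest among the larger classes in Bergmann glia-like nuclei, and Acvr1 and Bmpr2 vary less.

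The receptors fell into a cell type-restricted pair, the type I receptors Bmpr1b and Bmpr1a, and a broad pair, the type I receptor Acvr1 and the type II receptor Bmpr2. Bmpr1b (ENSMUSG00000052430, chr3:141837136-142169425, minus strand) was highest in parenchymal astrocyte-like nuclei, at 623 CPM (552 to 699) in control and 561 CPM (517 to 608) in the cKO-labelled library. Bergmann glia-like nuclei followed at 445 and 413 CPM and unipolar brush cell-like nuclei at 428 and 361 CPM, and these neighbours overlapped in both libraries. GN-like nuclei had 70.6 and 57.4 CPM and Purkinje cell-like nuclei 27.8 and 19.9 CPM, the lowest in control. Among the neuronal classes, only unipolar brush cell-like nuclei came near the Bergmann glia-like level, and oligodendrocyte lineage-like nuclei were far below it (73.7 and 35.9 CPM).

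GNP-like nuclei reached 212 CPM of Bmpr1b in control (430 UMIs, 192 to 233) and 95.7 CPM in the cKO-labelled library (41 UMIs, 68.6 to 130), a ratio of 0.452 (0.320 to 0.624). Both clusters were lower, the mitotic cluster 15 with a ratio of 0.462 (226 and 104 CPM) and cluster 18 with 0.390 (190 and 74.1 CPM). In the cKO-labelled library these clusters also had more Cntn2, at 48.3 CPM in control and 153 CPM in cluster 15 and at 43.0 and 206 CPM in cluster 18. Cluster 9, high in Cntn2, had 102 and 85.6 CPM of Bmpr1b. The share of nuclei with Bmpr1b after thinning was 17.0% (86 of 506) and 11.2% (13 of 116), with overlapping intervals.

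Bmpr1b was lower in the cKO-labelled library in all 8 of the larger named classes in which it was counted, and the size varied. The ratio was 0.813 (0.716 to 0.923) in GN-like, 0.843 (0.729 to 0.974) in unipolar brush cell-like and 0.714 (0.536 to 0.955) in Purkinje cell-like nuclei. After thinning it was 0.991 in GN-like and 1.02 in unipolar brush cell-like nuclei, so the lower level in those classes did not hold at equal depth per nucleus. Without thinning it was 0.929 in Bergmann glia-like, 0.902 in astrocyte-like and 0.870 in GABAergic interneuron-like nuclei, with intervals that held 1. In oligodendrocyte lineage-like nuclei the ratio was 0.488 (26 and 36 UMIs, 0.286 to 0.841), which turned to 1.2 in gated single nuclei, and with nuclei carrying Mbp or Mag left out the levels were 72.9 and 41.3 CPM. Microglia-like nuclei had 11 UMIs of Bmpr1b in 4 control nuclei and 3 UMIs in the cKO-labelled library, too few to be counted.

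Bmpr1a (ENSMUSG00000021796, chr14:34410734-34503341, minus strand) shared the glial emphasis and differed between the libraries less. Bergmann glia-like nuclei stood at 269 CPM (238 to 302) in control and at 275 CPM (253 to 298) in the cKO-labelled library. GNP-like nuclei had 188 and 215 CPM and parenchymal astrocyte-like nuclei 181 and 232 CPM, and these neighbours overlapped in both libraries. Purkinje cell-like nuclei were lowest at 59.6 and 50.4 CPM. Cluster 22 had 5 and 20 UMIs (138 and 349 CPM). The ratio ranged from 0.847 in Purkinje cell-like to 1.47 in microglia-like nuclei among the 9 larger classes, and each interval held 1.

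Along the granule lineage Bmpr1a declined, from 201 and 238 CPM in cluster 15 to 119 and 115 CPM in cluster 9, 81.1 and 92.2 CPM in cluster 3, 70.1 and 65.2 CPM in cluster 4 and 51.3 and 64.6 CPM in cluster 0. Clusters 15 and 9 were low in Bmp6, and cluster 0, the lowest in Bmpr1a, was the highest in Bmp6. Cluster 0 was the only one of these with an interval of the ratio that left out 1 (1.26, 1.03 to 1.54).

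Acvr1 (ENSMUSG00000026836, chr2:58388644-58567157, minus strand), also called ALK2, varied little between the larger classes. It was highest in unipolar brush cell-like nuclei, at 131 CPM (110 to 154) in control and 146 CPM (122 to 173) in the cKO-labelled library, followed by microglia-like nuclei at 116 and 122 CPM with overlapping intervals. Purkinje cell-like (71.3 and 63.8 CPM) and astrocyte-like nuclei (74.3 and 62.8 CPM) were lowest. The ratio was 0.832 (0.723 to 0.958) in GABAergic interneuron-like nuclei, the only larger class with an interval that left out 1.

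Bmpr2 (ENSMUSG00000067336, chr1:59763400-59879014, plus strand), the type II receptor also known as the gene of heritable pulmonary arterial hypertension, was found in every larger class. Microglia-like nuclei had 336 CPM (255 to 434) and 300 CPM (250 to 356), and every other larger class lay between 132 and 233 CPM. GNP-like nuclei had 233 and 191 CPM, GABAergic interneuron-like nuclei 210 and 212 CPM, and Purkinje cell-like nuclei 151 and 132 CPM. The ratio in Purkinje cell-like nuclei was 0.876 (0.780 to 0.984), and the other larger classes had intervals that held 1.

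Ligand and receptor transcripts were compared within nuclei after thinning. Among Bergmann glia-like nuclei, Bmpr1b was found in 34.2% of those with Gdf10 and 34.4% of those without it in control, and in 32.2% and 30.2% in the cKO-labelled library. Bmpr1a was found in 17.7% and 22.3% in control and in 23.5% and 21.4% in the cKO-labelled library. Transcripts of Gdf10 and the 2 type I receptors were thus found in the same class without a clear preference for the same nuclei. Whether the product of Gdf10 acts through these receptors was not tested. Among GN-like nuclei of control, Bmpr1b was found in 4.35% of those with Bmp6 and 5.68% of those without it. In the cKO-labelled library the shares were 3.85% and 6.57%. The shares with Bmp6 rest on few nuclei, 7 of 161 in control and 8 of 208 in the cKO-labelled library. Acvr1 went the other way, at 8.07% and 7.62% in control and 9.13% and 7.53% in the cKO-labelled library. Bmpr2 differed little, at 18.01% and 16.87% in control and 16.83% and 17.05% in the cKO-labelled library.

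The wider pathway was counted from a list of 62 genes, of which 61 were in the matrices and 50 had at least 20 UMIs. Over all nuclei 3 were past 1.5-fold higher and 3 lower, with a median log2 ratio of 0.16, beside the 7.03% and 7.72% of all genes. With class shares held equal, none was past 1.5-fold higher, and 1 receptor gene (Eng), 2 inhibitors and 2 targets were past it lower, beside 4.09% and 7.33% of all genes on that scale.

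Among the other ligands 1 of 5 counted was higher, Bmp3, a relative of Gdf10, on 9 and 26 UMIs (ratio 1.97, 0.894 to 4.78). Bmp8a and Bmp8b had ratios of 1.12 and 1.22. Among the other receptors and co-receptors 1 of 9 was past 1.5-fold, Acvr1c, the type I receptor of nodal (42 and 96 UMIs, ratio 1.56, 1.07 to 2.30). Rgma, a glycolipid-anchored BMP co-receptor, had a ratio of 1.31 and was highest in parenchymal astrocyte-like (671 and 714 CPM) and Bergmann glia-like nuclei (456 and 597 CPM). Eng, a co-receptor of vessels, had a ratio of 0.699 on 40 and 41 UMIs.

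Among 18 secreted or membrane inhibitors none was past 1.5-fold higher and 2 were lower. Chrd, which encodes the BMP-binding protein chordin, went from 422 to 274 UMIs (ratio 0.443, 0.379 to 0.516). Among the larger classes it was highest in GNP-like nuclei, with levels of 78.3 CPM (66.6 to 91.4) in control and 25.7 CPM (12.8 to 45.9) in the cKO-labelled library. Chrdl2, a chordin-like gene, had a ratio of 0.543 (0.407 to 0.722), and Smoc1, another BMP antagonist, of 1.49, with its highest level in astrocyte-like nuclei (605 and 777 CPM). The 3 proteases that free ligands from inhibitors, Bmp1, Tll1 and Tll2, had ratios of 1.25, 1.12 and 1.27.

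Of 8 SMAD and ubiquitin ligase genes only the inhibitory Smad6 was past 1.5-fold (44 and 98 UMIs, ratio 1.52, 1.05 to 2.22). It is also a target of the pathway, and was found mainly in Bergmann glia-like nuclei, at 18.1 CPM (10.9 to 28.3) and 26.5 CPM (20.1 to 34.3), intervals that overlapped. Smad9 had a ratio of 1.32 and Smad7, the other inhibitory SMAD, of 0.840. Among 10 target genes 1 was past 1.5-fold higher (Smad6) and 1 lower, Hey1, which also responds to Notch (94 and 45 UMIs, ratio 0.326, 0.223 to 0.470). Hey1 stood at 16.7 CPM in GNP-like nuclei of control and 4.67 CPM (2 UMIs) in the cKO-labelled library. Bambi, which encodes a decoy receptor, had a ratio of 1.48.

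The Id genes, the best known targets, did not share 1 pattern. Among the larger classes Id1, Id3 and Id4 were highest in Bergmann glia-like nuclei and Id2 in Purkinje cell-like nuclei, over both libraries. Id3 stood at 101 CPM (82.7 to 122) and 126 CPM (111 to 142) in Bergmann glia-like and at 54.6 and 78.7 CPM in astrocyte-like nuclei, against 9.23 and 12.9 CPM in GN-like nuclei. Id1 stood at 49.6 and 52.1 CPM and Id4 at 63.9 and 91.5 CPM in Bergmann glia-like nuclei, against 7.31 and 6.99 CPM and 7.99 and 12.5 CPM in GN-like nuclei. Id2 stood at 69.7 and 83.8 CPM in Purkinje cell-like, 42.9 and 40.2 CPM in Bergmann glia-like and 17.2 and 21.9 CPM in GN-like nuclei. The intervals of the libraries overlapped for Id3 in Bergmann glia-like nuclei, where Gdf10 differed 1.63-fold. Over all nuclei the ratio was 1.25 (1.10 to 1.42) for Id3 and 1.44 (1.25 to 1.65) for Id4. Id1 (0.972) and Id2 (1.08) had intervals that held 1. With class shares held equal, the ratios of Id3 and Id4 were 1.12 and 1.25. A link between Gdf10 and the Id genes was not tested. The 4 Id genes were named after their values were seen.

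Genes with the most similar pattern were ranked by Pearson's r of log2(CPM + 5) over 18 points, 9 classes in each of 2 libraries, among 13638 genes with at least 200 UMIs. The points of a library share its depth and carried-over RNA, and the values are a description. Gdf10 was closest to Col2a1 (0.94), Fzd1 (0.93) and Thbs2 (0.92). Bmp6 was closest to Emcn (0.93), 4930579J19Rik (0.92) and Gm14342 (0.92), and Bmp5 to Gm15723 (0.95), Dock5 (0.93) and Tbata (0.90).

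Among the receptors, Bmpr1a was closest to Vps37b (0.97), Serpinh1 (0.95) and Znrf3 (0.95), and Bmpr1b to Ttc26 (0.92), Celsr1 (0.92) and Galnt18 (0.91). Bmpr2 was closest to Tnks2 (0.94), Mtif2 (0.93) and Heca (0.93), and Acvr1 to Gm15354 (0.85), Copg2 (0.85) and Dock11 (0.82). Between members the highest values were 0.80 for Gdf10 with Bmpr1a, 0.68 for Bmpr1a with Bmpr1b and 0.52 for Bmpr2 with Acvr1. Bmp6 had an r of -0.41 with Bmpr1a, the lowest of any pair among the 7 members with at least 200 UMIs.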

How the data were processed

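Nuclei from frozen cerebella were profiled by droplet-based single-nucleus RNA-seq of transcript 3′ ends (10x Genomics), with 1 library per group. The authors used Cell Ranger 7.0.1 for alignment and counting on mm10 (GRCm38), and the deposited values are raw counts of UMIs per gene and nucleus, with no normalisation. The authors subtracted free RNA with SoupX before clustering; the deposited counts were used here without that step. Whether intronic reads were counted is not given in the sources used here.

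The deposited matrices held 4857 control barcodes (22325208 UMIs, median 4072) and 6946 of the cKO-labelled library (33726533 UMIs, median 4161.5). Nuclei over 25% mitochondrial UMIs (1 and 5) and the highest Scrublet scores (scanpy 1.11.5; 0.8% per 1000 barcodes, 189 and 386 nuclei) were removed. Clusters came from Seurat 5.3.0 in R 4.3.3 at resolution 0.8 after integration, with the members and the pathway list kept out of the features, which gave 23 clusters.

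A cluster was named where at least 3 markers, and more than 50% of a list, were in 10% of nuclei and stood 2-fold above the 25th percentile of the other clusters (pseudocount 5 CPM), and averaged at least 1 in log2 fold. It stayed unnamed where its depth was under that of its library by more than 3-fold, or where markers of a different class outnumbered its own among the 10 leading genes. Cluster 22 met the rule for fibroblast and mural cells over both libraries but is reported by number. The thresholds of this rule were chosen once the clusters were known. The names were rebuilt here, and the members and lists were chosen with earlier results of these data known.

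Levels are summed UMIs per 1000000 with exact Poisson intervals, shares have exact binomial (Clopper-Pearson) intervals, and ratios have exact conditional binomial intervals, all at 95%. Intervals of ratios with class shares held equal use a normal approximation on the log scale. Levels at 0 use a floor of 3 counts per library and class. A class, cluster or gene was counted in a ratio with at least 20 UMIs over both libraries. All 10 members were named. From each pathway list up to 3 genes with the largest ratio in either direction were named, as were the 3 genes most similar to each member with at least 200 UMIs. The ratio and its interval were tested on simulated data. Alternatives covered scaling, doublets, depth, clustering, gating of single nuclei on markers and class shares. One gene is not reported here.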

Additional observations from a re-analysis of the deposited data

How the results depend on the processing

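No paired analysis was possible because each group is 1 library, and for the same reason no replicate could be left out. Of the ratios and counts that answer a comparison, 80 recomputed values stayed and 8 moved. A ratio stayed where it lay within the interval of the main value, and a count where it lay within 1.5-fold. Reversal was scored only for ratios past 1.5-fold, so a ratio nearer to 1 could cross 1 and still be scored as stayed. The whole-library ratio of Bmp7, for example, reached 1.04. Thinning every nucleus to 1000 UMIs moved the whole-library ratios of Bmp6 to 0.884, Gdf10 to 2.69 and Bmpr1b to 0.889, and that of Gdf10 in Bergmann glia-like nuclei to 1.87. Under the other alternatives the last ranged from 1.53 to 1.69. With class shares taken from the cKO-labelled library, the ratio of Gdf10 was 1.61 and that of Bmpr1b 0.836. The class with the highest level was kept in 20 of 20 pairs of member and library at resolution 1.2, in 8 at resolution 0.4, where neither cluster 22 nor an astrocyte-like class was formed, and in 13 when single nuclei were gated on markers.

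Among single values within classes, 457 stayed, 35 moved and 3 reversed. Bmp6 in GNP-like nuclei had a ratio of 6.90 at resolution 0.4 and of 2.02 when gated, and Bmpr1b in oligodendrocyte lineage-like nuclei had 1.2 when gated; the cause was not tested. Gdf10 in GNP-like nuclei ranged from 9.91 to 32.3, Bmpr1b there from 0.41 to 0.52. When gated, Bmp7 in Bergmann glia-like nuclei had 0.636. Treating each cluster or each unnamed group as a class, and leaving out oligodendrocyte lineage-like nuclei with Mbp or Mag, were chosen after seeing the data. At this depth, a member with under 20 UMIs in a class could not be compared between the libraries.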
